A study of Mus musculus with 8 samples.

Results

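The genes described here encode pre-mRNA splicing factors. They were taken by name, as every gene with a probe set annotated to a single symbol beginning with Hnrnp, Srsf, Sf3a, Sf3b, Snrp, U2af or Prpf, which gave 52 of 8251 genes and 71 of 12488 probe sets. By role they comprised 16 heterogeneous nuclear ribonucleoproteins (hnRNPs), 9 SR proteins, 11 subunits of SF3 and U2AF, 8 Snrp genes and 8 Prpf genes. The brightest probe set by mean over all arrays represented a gene. Of the 52 genes, 47 passed the filter on dim signals, and Hnrnph3, Hnrnpll, Prpf4b, Srsf4 and U2af1l4, with highest values of 25, -49, 0, 53 and 59, did not.

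RNA came from B cells sorted from F1 mice of the QM and B6 strains and was hybridised to 8 Affymetrix arrays, 2 for each of 4 groups. QM mice carry a knocked-in heavy chain gene that can give antibodies to the hapten NP. The arrays do not show what share of the sorted F1 B cells had this specificity. T-independent germinal centre B cells (TI day 4) came from mice given 30 µg of NP-Ficoll intraperitoneally and sorted on day 4, in pools of 4 and 10 mice. Day 4 T-dependent cells (TD day 4) came from mice primed with 50 µg of alum-precipitated chicken gamma-globulin (CGG) plus heat-killed B. pertussis and given 50 µg of NP-CGG in soluble form after 5 weeks, in pools of 6 and 9 mice. Day 10 T-dependent cells (TD day 10) came from unprimed mice given 50 µg of NP-CGG in alum with heat-killed B. pertussis, in 2 pools of 6 mice. These 3 groups were sorted as GL7-positive and B220-positive. Resting B cells came from unimmunised mice, were GL7-negative and B220-positive, and were pooled from 6 and 9 mice. Each array thus averages several animals, and the design text calls the pools biological replicates.

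Splicing removes introns from new transcripts. Small nuclear ribonucleoproteins (snRNPs), built on rings of Sm proteins, recognise the splice sites, U2AF and the SF3 complexes mark the 3′ splice site and the branch point, and the Prpf proteins belong mainly to the particles that then form the active spliceosome. SR proteins and hnRNPs bind the transcript itself and influence which exons are kept. In B cells, alternative processing of heavy chain transcripts decides, among other things, between membrane and secreted immunoglobulin.

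Promoter sequences were matched for 46 of the 52 genes in RefSeq (GRCm38.p6). Shown are the 250 bases before the start site, 5′ to 3′ on the strand of the gene, of 3 genes on which the results below turn. Hnrnpm had the largest called difference from resting B cells in the mean of the germinal centre groups (chr17:33685459-33685708, minus strand). Srsf1 separated TI from TD cells (chr11:88047123-88047372, plus strand). At its brighter probe set, Srsf2 had close levels on all germinal centre arrays, above resting (chr11:116853095-116853344, minus strand). Capitals mark matches, on either strand, to the CCAAT box, to GGGCGG (the core of the Sp1 box), to CCGGAAG (an ETS site core) and to TATAAA. A match on the opposite strand appears as the reverse complement, so GGGCGG then reads CCGCCC.
Hnrnpm: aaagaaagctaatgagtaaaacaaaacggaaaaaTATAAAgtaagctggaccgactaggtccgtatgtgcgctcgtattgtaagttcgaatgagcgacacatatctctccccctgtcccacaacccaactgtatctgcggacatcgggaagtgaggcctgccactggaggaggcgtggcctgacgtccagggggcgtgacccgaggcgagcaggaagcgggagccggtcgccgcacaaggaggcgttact
Srsf1: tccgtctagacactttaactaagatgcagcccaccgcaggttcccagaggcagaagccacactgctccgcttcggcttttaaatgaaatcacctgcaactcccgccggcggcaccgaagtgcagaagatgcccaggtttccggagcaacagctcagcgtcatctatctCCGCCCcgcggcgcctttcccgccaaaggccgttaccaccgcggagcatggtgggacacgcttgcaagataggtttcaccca
Srsf2: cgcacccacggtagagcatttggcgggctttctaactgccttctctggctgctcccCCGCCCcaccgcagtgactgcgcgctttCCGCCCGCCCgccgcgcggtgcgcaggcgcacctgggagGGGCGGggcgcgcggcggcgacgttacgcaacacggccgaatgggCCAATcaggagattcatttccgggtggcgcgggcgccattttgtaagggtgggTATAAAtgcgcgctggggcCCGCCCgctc
The Srsf2 window held a TATAAA match 29 bases before the start, a CCAAT match 82 bases before it and 5 GGGCGG matches, of which those 166 and 162 bases before the start overlap. The Srsf1 window held 1 GGGCGG match, 82 bases before the start, and the Hnrnpm window 1 TATAAA match, 216 bases before it. CCGGAAG lay in the windows of 15 of 46 members (32.6%), beside 15.6% of 4349 genes tested on the arrays and 7.83% of 27025 genes in the table. GGGCGG lay in 67.4% of members, 61.3% of tested genes and 35.4% of all genes. For CCAAT the shares were 47.8%, 40.7% and 37.5%, and for TATAAA 8.7%, 9.91% and 14.3%, in the same order. These are counts of letters and do not show binding.

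The sort was checked on marker genes. The summed signal of 4 B cell markers lay between 20343 and 20844 in TI day 4, 19498 and 21601 in TD day 4, 18093 and 19018 in TD day 10, and 24741 and 29467 in resting B cells. Of 3 germinal centre markers on the array, Bcl6 and Mki67 were higher in every germinal centre array than in both resting arrays, while Fas stayed at or under the floor everywhere. Other cells' transcripts differed between the groups. Red cell markers summed to 2318 and 2866 in TI day 4, 713 to 1277 in the TD arrays, and 22662 and 25147 in resting. Of these Slc4a1 read 1700 and 2317 in TI day 4, 221 to 419 in the TD arrays, and 724 and 707 in resting. The globins overlapped between TI and TD, with Hba-a1 at 508 and 490 in TI day 4 and 285 to 696 in the TD arrays. Hbb-b2 read 110 and 59 in TI day 4 and 65 to 329 in the TD arrays. Plasma cell markers summed to 9601 and 12407 in TI day 4, 2444 to 3669 in the TD arrays, and 1408 and 1673 in resting. Of the plasma cell markers, Sdc1 and Prdm1 did not pass the filter on dim signals. Neutrophil markers summed to 1600 to 2690 in the germinal centre arrays and 6282 and 6548 in resting, with Ngp at or under the floor everywhere. Macrophage markers summed to 1503 and 1544 in TI day 4, 809 to 1092 in the TD arrays, and 2068 and 2290 in resting, with Adgre1 at or under the floor. T cell markers, 6 on the array, summed to 453 and 474 in TI day 4, 749 and 506 in TD day 4, 514 and 834 in TD day 10, and 427 and 449 in resting. Of these Cd3e, Cd3d, Cd8a and Thy1 stayed at or under the floor. Cd4 read 366 and 382 in TI day 4, 422 to 710 in the TD arrays, and 292 and 339 in resting. Most called members shared this order of groups. Cd3g read 69 and 92 in TI day 4, 62 to 75 in the TD arrays, and 109 and 73 in resting, and did not share it. Gapdh signal at the 3′ end over that at the 5′ end, a measure of RNA quality, was 1.24 and 1.68 in TI day 4, 0.981 and 0.954 in TD day 4, 0.836 and 0.897 in TD day 10, and 0.867 and 1.59 in resting. For beta-actin this ratio was 1.59 and 1.91 in TI day 4 and 1.55 and 1.88 in resting. It was 1.48 and 1.33 in TD day 4 and 1.24 and 1.36 in TD day 10. By beta-actin the TI and resting arrays thus stood above all TD arrays. The beta-actin ratio was not used as a covariate. The part of the other cells' transcripts in the differences below was not tested, nor, except through the alternatives named below, that of RNA quality.

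Splicing factor transcripts were higher in germinal centre than in resting B cells for some of the set, and none was called lower in the mean of the 3 groups. A gene was called when its adjusted p was under 0.05 (limma on log2 intensities with values under 81 set to 81, Benjamini-Hochberg over all 7253 probe sets tested). With the mean of the 3 germinal centre groups set against resting, 17 of 47 tested members were higher and 0 lower, where 7.4% of all 5419 tested genes were called higher and 5.33% lower, 12.7% together. The median log2 difference was 0.44 over the members and -0.0026 over all tested genes. Of the 17, 6 were hnRNPs, 4 SR proteins, 3 SF3 or U2AF subunits and 4 Snrp genes, and 0 of 7 Prpf genes was called. Without resting replicate 1 the call held for 8 of the 17 and Prpf39 was called lower, and without TD day 4 replicate 1 it held for 11. With the Gapdh ratio as a covariate, an alternative chosen after seeing the data, it held for 15, and without resting replicate 2, the resting array with the higher ratio, for 13. All 17 differences kept their sign in each of these. Hnrnpm, Hnrnpu, Srsf1, Srsf2 and U2af1 kept their call in 18 of 18 alternatives, Hnrnpd in 10, Srsf11 in 7, Snrpg in 6 and Snrpd3 in 4. In bulk RNA, fewer cells that carry a transcript and less transcript per cell cannot be told apart.

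**Figure D1:**
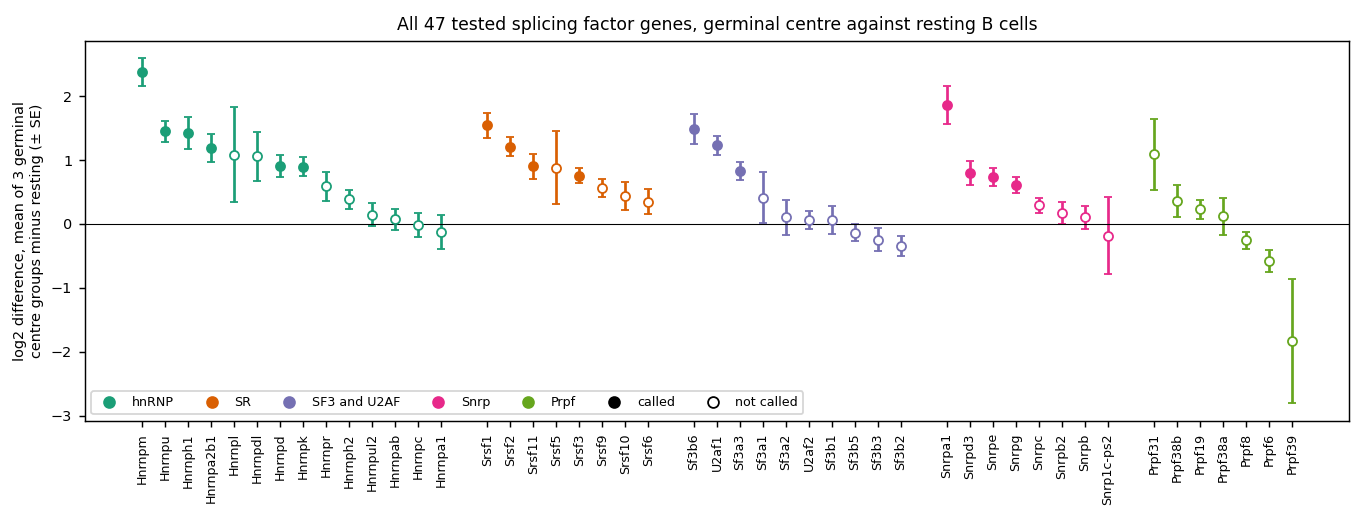
Log2 difference of each of the 47 tested splicing factor genes, the mean of the 3 germinal centre groups minus resting, with its SE, grouped by role. Filled points are called at an adjusted p under 0.05. Called points lie above 0 in the hnRNP, SR, SF3 and U2AF, and Snrp groups, and the Prpf group holds open points alone.

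Among the hnRNPs 6 of 14 tested genes were called higher in the mean comparison, with a group median log2 difference of 0.90. Hnrnpm, a regulator of exon choice, read 435 and 551 in TI day 4, 685 and 654 in TD day 4, 534 and 613 in TD day 10, and 86 and 141 in resting. Every germinal centre array thus lay far above both resting arrays, a rise of 5.20-fold (adjusted p = 0.0019). Folds are ratios of geometric means, taken from mean log2 values with the floor applied. Taken alone, TI day 4 was 4.45-fold, TD day 4 6.08-fold and TD day 10 5.20-fold above resting for Hnrnpm, and each of these was called.

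Hnrnph1, which binds G-rich stretches, read 564 and 422 in TI day 4, 612 and 854 in TD day 4, 718 and 570 in TD day 10, and 181 and 284 in resting, 2.69-fold higher (adjusted p = 0.016). Hnrnpa2b1, a splicing and RNA transport protein, read 1703 and 1492, 2634 and 2832, 2649 and 2223, and 740 and 1243 in the same order, 2.29-fold higher (adjusted p = 0.019). In both genes no germinal centre array overlapped the resting arrays, and the resting arrays differed from each other by a wide margin. The other probe set of Hnrnpa2b1 was called too, at least 1.93-fold higher (adjusted p = 0.049).

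Hnrnpd, which binds AU-rich elements of messenger RNA, read 944 and 953 in TI day 4, 1201 and 1217 in TD day 4, 915 and 930 in TD day 10, and 446 and 662 in resting, 1.88-fold higher (adjusted p = 0.021). Hnrnpk, a protein that binds C-rich RNA, read 231 and 248, 402 and 444, 390 and 305, and 164 and 188 in the same order, 1.86-fold higher (adjusted p = 0.015). For Hnrnpk the TI arrays lay between the resting and the TD arrays. The sixth call, Hnrnpu, came from the TI arrays and is described below. Of the uncalled hnRNPs, Hnrnpdl read 971 to 1416 in the germinal centre arrays and 320 and 901 in resting (log2 difference 1.06 ± 0.38 SE, adjusted p = 0.14). Without resting replicate 2 the difference of Hnrnpdl was 1.81 and was called (adjusted p = 0.017). Hnrnpab and Hnrnpul2, both bright, differed by 0.07 ± 0.17 and 0.14 ± 0.18 (log2, SE). The uncalled Hnrnpl, Hnrnpr, Hnrnph2, Hnrnpc and Hnrnpa1 ranged from -0.13 to 1.09, and Hnrnpl, at 78 and 553 in resting, had the widest error (SE 0.74). The probe set that represents Hnrnpa1 lay above the floor on 2 arrays. A brighter probe set, which names Hnrnpa1 together with other genes, read 365 to 749 in the germinal centre arrays and 161 and 258 in resting. It was called higher (log2 difference 1.26, limma adjusted p = 0.022). Another that names Hnrnpa1 with a further gene differed by 0.20 and was not called (limma adjusted p = 0.55). Neither could be assigned to Hnrnpa1 alone.

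**Figure D2:**
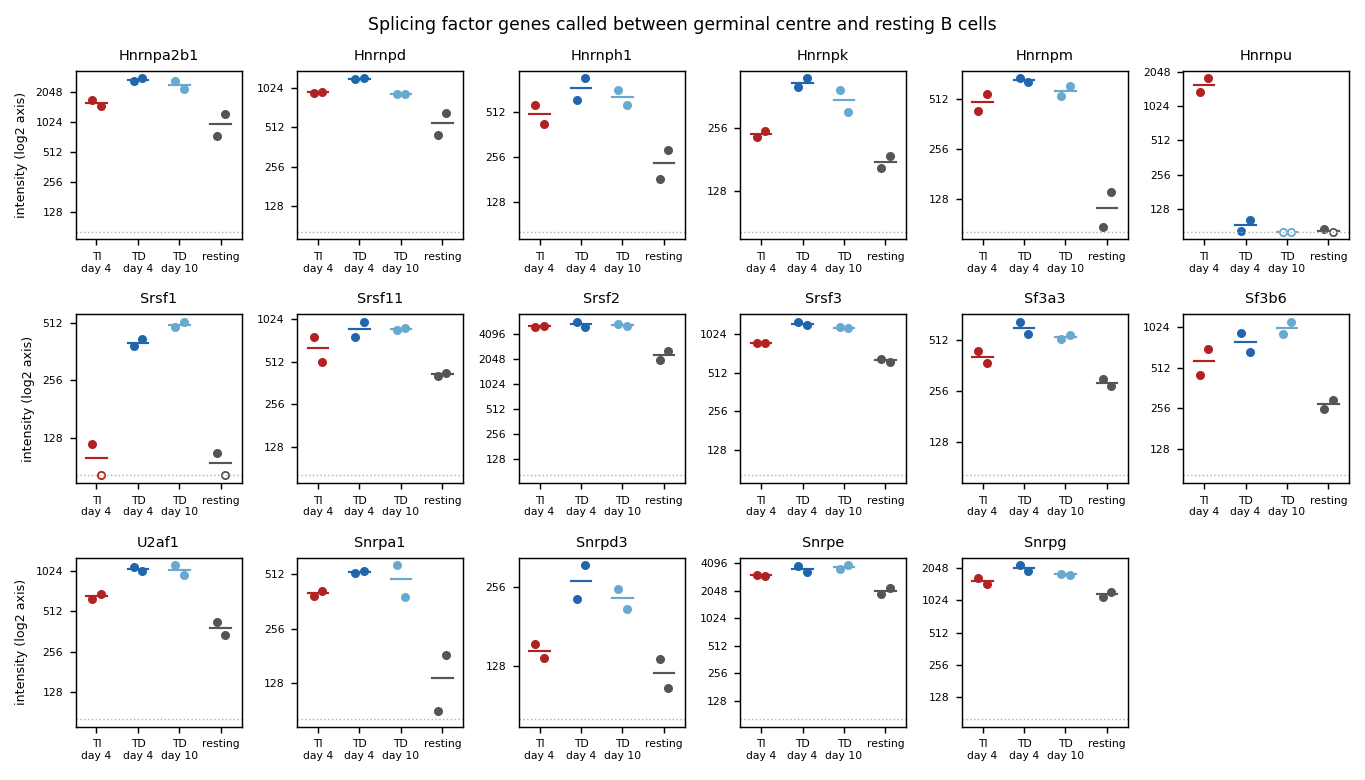
Intensity on each array, on a log2 axis, of the 17 splicing factor genes called in the mean comparison, in TI day 4, TD day 4, TD day 10 and resting B cells. Points are arrays, open where at or under the floor of 81 (dotted line), and bars are means of the floored values. Each gene is drawn at its brightest probe set. The TI points of Srsf1 lie with the resting points and those of Hnrnpu far above all others. In Srsf2 all germinal centre points lie together at this probe set.

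The SR proteins, which bind exons through an RNA recognition motif and recruit the splicing machinery through serine- and arginine-rich tails, had log2 differences above 0 in 8 of 8 tested genes, with 4 called. Srsf2, also known as SC35, read 4965 and 5160 in TI day 4, 5713 and 5011 in TD day 4, 5345 and 5103 in TD day 10, and 1992 and 2542 in resting. It rose 2.32-fold (adjusted p = 0.0046), and by 2.25-fold, 2.38-fold and 2.32-fold in TI day 4, TD day 4 and TD day 10 taken alone. Its other probe set read 497 and 503, 928 and 784, 974 and 931, and 272 and 40 in the same order. With the last value at the floor it was at least 4.99-fold higher (adjusted p = 0.018). There the TI arrays lay below all TD arrays, unlike at the brighter probe set, though no TI to TD difference was called.

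Srsf3 read 875 and 884 in TI day 4, 1283 and 1203 in TD day 4, 1174 and 1139 in TD day 10, and 656 and 627 in resting, 1.69-fold higher (adjusted p = 0.010). Its dimmer probe set was not called, with 0.01 ± 0.24 (log2, SE). Srsf11, an SR-related protein, read 768 and 509, 766 and 979, 862 and 879, and 407 and 426 in the same order, 1.87-fold higher (adjusted p = 0.033). Srsf9 missed the threshold in the mean comparison (log2 difference 0.56 ± 0.14 SE, adjusted p = 0.052). Set against resting, Srsf9 was called in TI day 4 alone, where it read 943 and 1145 against 557 and 618 in resting (1.77-fold, adjusted p = 0.035), and it read 720 to 835 in the TD arrays. The difference of Srsf9 between TI day 4 and TD day 4 was 0.45 and was not called. Srsf6, Srsf5 and Srsf10 were not called (log2 differences 0.35 ± 0.19, 0.88 ± 0.57 and 0.44 ± 0.22, SE).

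Of the factors that mark the 3′ splice site and branch point, 3 of 10 were called and the median log2 difference was 0.08. U2af1, the small U2AF subunit, which reads the AG at the intron end, gave 637 and 694 in TI day 4, 1101 and 1017 in TD day 4, 1128 and 952 in TD day 10, and 428 and 344 in resting, 2.35-fold higher (adjusted p = 0.0047). Sf3b6, the small SF3b protein at the branch point, read 448 and 703, 921 and 673, 908 and 1120, and 253 and 294 in the same order, 2.80-fold higher (adjusted p = 0.011). Sf3a3, a subunit of SF3a, read 442 and 377, 660 and 559, 521 and 552, and 301 and 273, 1.78-fold higher (adjusted p = 0.015). In these 3 genes the arrays of the 3 germinal centre groups all lay above the resting arrays.

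Other subunits of the same complexes were not called. U2af2, the large U2AF subunit, which binds the polypyrimidine tract, read 3088 and 3394 in TI day 4, 3630 and 3381 in TD day 4, 2961 and 2949 in TD day 10, and 2725 and 3486 in resting (log2 difference 0.06 ± 0.15 SE). Sf3b2, Sf3b3 and Sf3b5 had log2 differences of -0.35 ± 0.16, -0.24 ± 0.18 and -0.13 ± 0.14 (SE), and none was called. Differences between U2af1 and U2af2, or among the SF3b subunits, were not tested. Sf3b1, the largest SF3b subunit, had probe sets that disagreed. Its brighter one read 466 to 701 over all arrays (0.06 ± 0.22, SE), and its dimmer one 340 and 267 in TI day 4, 424 and 480 in TD day 4, 386 and 443 in TD day 10, and 202 and 252 in resting, 1.70-fold higher (adjusted p = 0.034). Sf3a2 differed by 0.10 ± 0.28 (SE), and its resting arrays lay far apart, at 1744 and 866. Between TI day 4 and TD day 10 its probe sets went opposite ways, at 1.17 and -0.21 (log2), and neither was called. Sf3a1 differed by 0.41 ± 0.40 (SE) and was not called.

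Of 8 Snrp genes, 4 were called. Snrpa1, the U2 snRNP protein A′, read 390 and 414 in TI day 4, 523 and 538 in TD day 4, 575 and 386 in TD day 10, and 90 and 182 in resting, 3.63-fold higher (adjusted p = 0.011). Among proteins of the Sm ring, Snrpe read 3012 and 2984, 3772 and 3229, 3537 and 3860, and 1882 and 2182 in the same order, 1.67-fold higher (adjusted p = 0.019). Snrpg, of the same ring, read 1629 and 1441, 2147 and 1895, 1780 and 1763, and 1094 and 1220, 1.53-fold higher (adjusted p = 0.032). No germinal centre array of these 3 genes overlapped the resting arrays.

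Snrpd3, a further Sm protein, read 156 and 138 in TI day 4, 231 and 309 in TD day 4, 252 and 211 in TD day 10, and 136 and 106 in resting, 1.73-fold higher (adjusted p = 0.040), with the TI arrays only just above resting. Snrpb, which encodes the Sm proteins B and B′, read 8143 and 6275, 7294 and 6117, 6486 and 6594, and 5509 and 7213 in the same order and was not called (log2 difference 0.11 ± 0.18 SE). Snrpc, of the U1 snRNP, differed by 0.29 ± 0.12 (SE, adjusted p = 0.20). Snrp1c-ps2, which the name rule takes in although its symbol is that of a pseudogene, ranged from 216 to 1167 within TD day 4 alone. Snrpb2, the U2 protein that pairs with Snrpa1, differed by 0.16 ± 0.17 (log2, SE). The probe set that represents Snrpb2 lay above the floor on 3 arrays, none of them TI or resting, so the floor limits this difference. Its other probe set, 162026_r_at, lay above the floor on 2 arrays, at 127 in TI day 4 and 147 in TD day 10. That probe set was under the floor on both TD day 4 arrays and was not called in the mean comparison. A further 7 probe sets named a gene of these families together with another gene and were left out of the counts. Of these 6 were tested, and 3 were called higher in the mean comparison, by 2.4-fold to 3.27-fold, with 0 lower. The called ones named Snrpd1, Hnrnpa3 and Hnrnpa1 beside other genes.

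The Prpf genes, which act mainly in the particle of U4, U6 and U5 and in the Prp19 complex, had a median log2 difference of 0.12, and none was called in the mean comparison. Prpf8, the central U5 protein, read 676 and 791 in TI day 4, 801 and 737 in TD day 4, 700 and 794 in TD day 10, and 899 and 891 in resting (log2 difference -0.26 ± 0.13 SE, adjusted p = 0.31). Prpf6, a bridge between U5 and the U4 and U6 particle, read 474 and 671, 365 and 327, 512 and 546, and 722 and 684 in the same order. It was the 1 member called lower in any comparison with resting, 2.03-fold in TD day 4 (adjusted p = 0.032), and the call held in 7 of 18 alternatives. Prpf38a and Prpf38b differed by 0.12 ± 0.29 and 0.36 ± 0.25 (log2, SE). Prpf39 and Prpf31, named here after their values were seen, showed how far 1 array can stand apart. Prpf39 read 2089 on resting replicate 2 and 12 to 216 on the other arrays, and Prpf31, a protein of the U4 and U6 particle, read 280 and 39 in TD day 4. Their differences, -1.84 ± 0.97 and 1.09 ± 0.56 (log2, SE), were not called. The other probe set of Prpf39 lay under the floor on every array.

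The 3 germinal centre groups were also set against resting one by one. These comparisons share the resting arrays, so their calls are not independent. TI day 4 had 5 of 47 members called higher and 0 lower (5.41% and 3.78% of all tested genes, 9.19% in either direction). TD day 4 had 16 higher and 1 lower (5.35% and 3.67%, 9.02% together), and TD day 10 had 13 higher and 0 lower (6% and 4.41%, 10.4% together). The member medians of the log2 difference were 0.27, 0.51 and 0.42 in TI day 4, TD day 4 and TD day 10, beside -0.03, -0.03 and 0.04 over all genes. The 5 called in TI day 4 were Hnrnpm, Hnrnpu, Snrpa1, Srsf2 and Srsf9. Counts depended on single arrays. For TI day 4, 2 calls were left without its replicate 1, 1 without its replicate 2, and 3 without any 1 of the TD arrays. For TD day 4, 2 were left without its replicate 1, 3 without its replicate 2, and 11 without resting replicate 2 or either TD day 10 array. For TD day 10, 2 were left without its replicate 1, 3 without its replicate 2, and 8 without any 1 of the TD day 4 or TI day 4 arrays. The genes with the largest rises in TD day 10 were Srsf1 (2.44 on the log2 scale), Hnrnpm (2.38) and Sf3b6 (1.89).

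Few differences between TI and TD germinal centre B cells passed the test, and most members lay lower in TI than in TD day 4. Against TD day 4, 1 of 47 members was higher and 1 lower in TI, where 0.738% of all genes were called higher and 0.406% lower, 1.14% together. The log2 difference was below 0 in 38 of 47 members, with a median of -0.24 beside -0.01 over all genes. Against TD day 10, again 1 was higher and 1 lower (1.11% and 0.738% of all genes, 1.85% together), 31 members lay below 0, and the median was -0.18 beside -0.07 over all genes. With arrays scaled to a common median, 37 of 47 members lay below 0 against TD day 4, but 25 of 47 against TD day 10, with a median of -0.04 beside 0.03 over all genes. Both calls in each comparison were Hnrnpu and Srsf1. Of the 17 members called in the mean comparison, 15 had a TI mean under both TD means and above resting. Among all 401 genes called higher there, 230 (57.4%) had a TI mean under both TD means. Hnrnpk, Snrpd3 and U2af1 differed between TI day 4 and TD day 4 by -0.82 ± 0.19, -0.86 ± 0.23 and -0.67 ± 0.19 (log2, SE), with adjusted p = 0.11, 0.15 and 0.17. The lowest Gapdh ratio among TI arrays, 1.24, lay above the highest among TD arrays, 0.981, and with this ratio as a covariate 1 call was left in each comparison, that of Hnrnpu. The plasma cell markers Xbp1 and Jchain also stood higher in TI, as did the summed macrophage and red cell markers. The T cell marker Cd4 lay lower in TI but was not called (limma adjusted p = 0.59 against TD day 4 and 0.45 against TD day 10). For Cd3g, another T cell marker, TI and TD arrays overlapped. The part of all these markers was not tested. Without TD day 4 replicate 1 or without TI day 4 replicate 2, 0 members passed between TI day 4 and TD day 4, and without any other 1 of the TI and TD arrays Hnrnpu alone did. Between TI day 4 and TD day 10, Hnrnpu alone passed without TI day 4 replicate 2 or either TD day 10 array, and without either resting array Prpf39 and Sf3a2 were also called higher, which made 4.

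**Figure D3:**
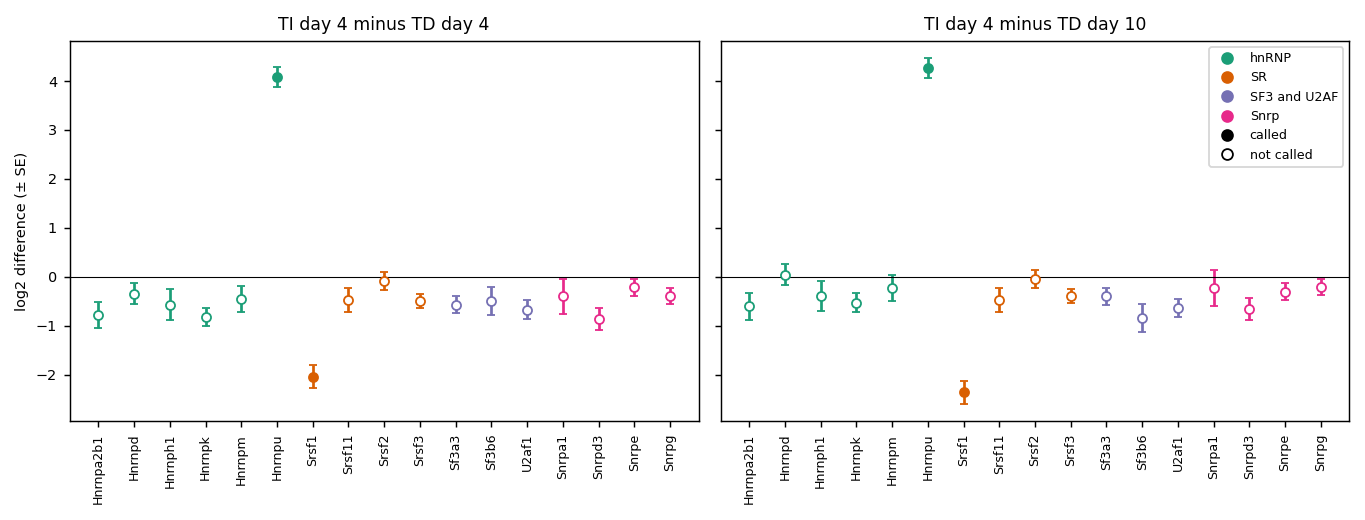
Log2 difference with its SE between TI day 4 and TD day 4 (left) and between TI day 4 and TD day 10 (right) for the 17 genes called in the mean comparison. Filled points are called. Hnrnpu lies above 4 in both panels, Srsf1 at -2.04 and -2.36, and most others lie below 0 without being called.

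Srsf1, the SR protein first known as ASF or SF2, separated the TI arrays from both TD groups. At probe set 160539_at it read 118 and 75 in TI day 4, 387 and 420 in TD day 4, 486 and 519 in TD day 10, and 106 and 20 in resting. The TD arrays thus stood above the TI and resting arrays, which overlapped. TI day 4 was at least 4.12-fold lower than TD day 4 (adjusted p = 0.022) and at least 5.14-fold lower than TD day 10 (adjusted p = 0.011), and its difference from resting was 0.08 ± 0.24 (log2, SE). The rise over resting was at least 4.35-fold in TD day 4 and at least 5.42-fold in TD day 10 (adjusted p = 0.0050 and 0.0034). At probe set 104586_at Srsf1 read 53 and 42 in TI day 4, 124 and 147 in TD day 4, 104 and 121 in TD day 10, and 59 and 16 in resting. TI and TD did not overlap there either, and the TI to TD day 4 difference was not called (adjusted p = 0.11). Probe set 160141_r_at read 56 and 59, 77 and 127, 93 and 117, and 24 and 23 in the same order, and 101022_at read 10 to 177 with no separation of the groups. The TI to TD day 4 call was lost in 10 of 18 alternatives and the TI to TD day 10 call in 5, all with the same sign. With the Gapdh ratio as a covariate neither passed, with differences of -1.69 and -1.93 (log2, adjusted p = 0.11 and 0.099).

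Hnrnpu, also known as scaffold attachment factor A, a nuclear protein that binds RNA and chromatin, had probe sets that disagreed. At 93761_at it read 1358 and 1792 in TI day 4, 82 and 103 in TD day 4, -9 and -47 in TD day 10, and 85 and 0 in resting. The signal was thus present on the TI arrays and near or under the floor on the other 6. TI day 4 was 17.0-fold higher than TD day 4 (adjusted p = 0.0050), at least 19.3-fold higher than TD day 10 (adjusted p = 0.0015) and at least 18.8-fold higher than resting (adjusted p = 0.00058). At 160316_at Hnrnpu read 59 and 85 in TI day 4, 109 and 129 in TD day 4, 118 and 133 in TD day 10, and 114 and 96 in resting, and the TI to TD day 4 difference was -0.52 ± 0.18 (log2, SE, adjusted p = 0.26). One probe set thus gave a large rise and the other values of the opposite sign that were not called. The call of Hnrnpu in the mean comparison rested on the TI arrays, since its log2 difference from resting was 0.15 ± 0.20 in TD day 4 and -0.03 ± 0.20 in TD day 10 (SE).

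Prpf19, the ubiquitin ligase of the Prp19 complex, showed a like split in another group. At its brighter probe set, 97395_at, it read 700 and 641 in TI day 4, 875 and 868 in TD day 4, 909 and 849 in TD day 10, and 781 and 598 in resting, with no call. At 162235_f_at Prpf19 read 51 and 96, 96 and 66, 298 and 336, and 108 and 98 in the same order. Both TD day 10 arrays stood above the other 6, 3.08-fold higher than resting (adjusted p = 0.0048), and TI day 4 was at least 3.59-fold lower than TD day 10 (adjusted p = 0.011). The brighter probe set did not show this rise, and the difference of TD day 10 from TD day 4 at 162235_f_at, 1.84 on the log2 scale, was not called (adjusted p = 0.14).

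**Figure D4:**
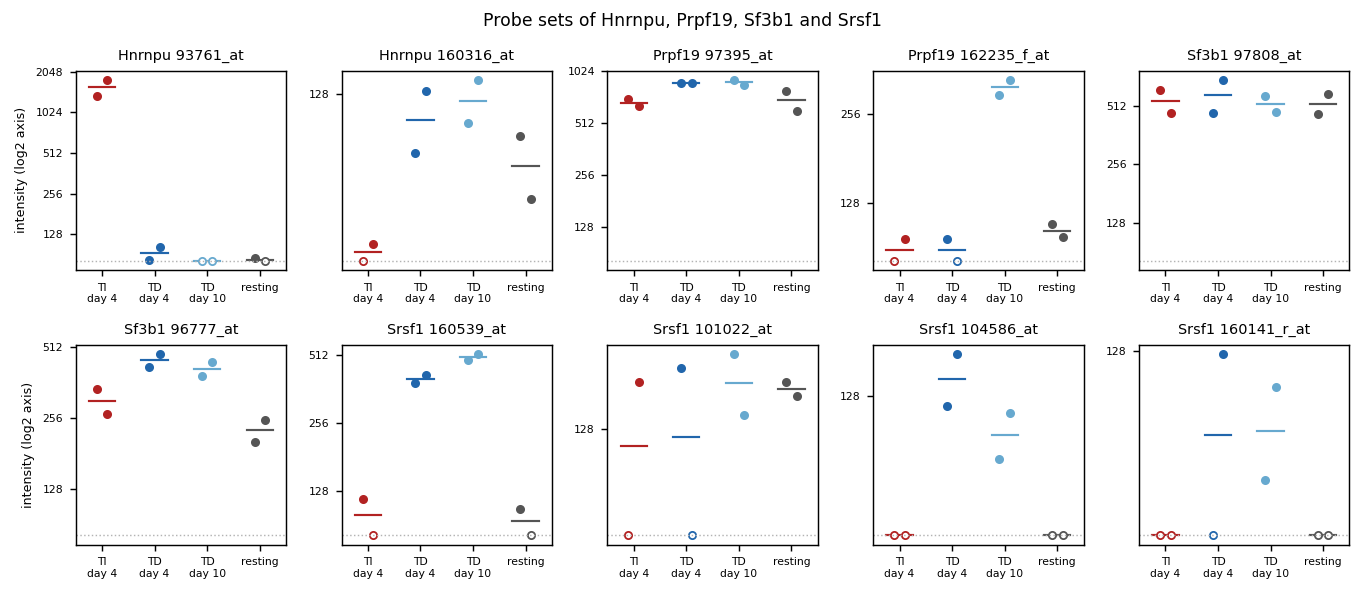
Intensity on each array, on a log2 axis, at single probe sets of Hnrnpu, Prpf19, Sf3b1 and Srsf1 in TI day 4, TD day 4, TD day 10 and resting B cells, drawn as in the plot of the 17 called genes, each panel with its own scale. Probe set 93761_at of Hnrnpu is high in TI alone, 162235_f_at of Prpf19 in TD day 10 alone, and 160539_at of Srsf1 in both TD groups.

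Over all members, 11 had more than 1 tested probe set, and 10 of these had the same sign at all of them in the mean comparison. The exception was Srsf1. The same sign is a weak form of agreement, since Hnrnpu, Sf3b1 and Srsf3 each had 1 of 2 tested probe sets called.

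No member was called between TD day 10 and TD day 4, which with 2 arrays a group does not show that they were alike. By limma, 0 of 47 members passed, and 0 of 5419 genes (0%), with 2 members and 255 genes at an unadjusted p under 0.05. The count was 0 in all 18 alternatives. The member median was -0.10 beside 0.03 over all genes.

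Other genes of the spliceosome and of splicing regulation, from a list of 119 symbols outside the name rule, gave 69 tested genes. In the mean comparison 11 were higher and 2 lower, 15.9% and 2.9% of them, beside 7.4% and 5.33% of all genes, and the median log2 difference was 0.17 beside -0.0026. Against resting one by one, 3 (4.35%) were higher in TI day 4, where 5.41% of all genes were, so this count is near the share of all genes. In TD day 4, 9 (13%) were higher and 1 lower, and in TD day 10, 10 (14.5%) were higher and 1 lower, beside 5.35% and 6% of all genes called higher. Ewsr1, which encodes an RNA-binding protein of the FET family, read 1376 and 1445 in TI day 4, 1274 and 1238 in TD day 4, 1158 and 1112 in TD day 10, and 426 and 581 in resting, 2.54-fold higher (adjusted p = 0.0038). Tra2b, a relative of the SR proteins, read 652 and 509, 831 and 1013, 796 and 857, and 228 and 318 in the same order, 2.82-fold higher (adjusted p = 0.0053). Both had germinal centre arrays clear of resting, and both were called in TI day 4 alone as well. Of the LSm proteins, which form a ring on U6 RNA and a related ring in RNA decay, Lsm8 was 2.62-fold, Lsm4 1.62-fold and Lsm3 1.69-fold higher (adjusted p = 0.012, 0.021 and 0.023). Tardbp, the RNA-binding protein TDP-43, was 1.98-fold and Cwc15, a spliceosome component, 1.91-fold higher (adjusted p = 0.010 and 0.0095).

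The 2 called lower were Puf60, which works beside U2AF at the 3′ splice site, with a log2 difference of -1.17 ± 0.22 (SE, adjusted p = 0.021), and Aqr, a helicase-like spliceosome protein, with -0.74 ± 0.18 (SE, adjusted p = 0.048). Puf60 read 400 and 390 in TI day 4, 167 and 105 in TD day 4, 101 and -25 in TD day 10, and 333 and 426 in resting. TI and resting arrays lay together, above the TD arrays. For Puf60, TI day 4 was at least 4.37-fold higher than TD day 10 (adjusted p = 0.018), and its difference from TD day 4, 1.58 ± 0.27 on the log2 scale (SE), was not called (adjusted p = 0.058). Set against resting, Puf60 was 2.84-fold lower in TD day 4 (adjusted p = 0.022) and at least 4.16-fold lower in TD day 10 (adjusted p = 0.0075). Aqr read 173 to 255 in the germinal centre arrays and 328 and 387 in resting.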

How the data were processed

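Total RNA, extracted with RNAzol and labelled with biotin per the labels, gave 8 arrays. The deposited intensity values are linear whole numbers, 30.1% of them 0 or below, and their mean per array without the 2% lowest and highest values is about 200.2, so they appear to be scaled after a background was taken off. The software is not given in the sources used here. Array medians lay between 77 and 89. Arrays carry no counts, so their number limits the precision.

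No further scaling was applied. Values under the 50th percentile of all values, 81, were set to 81 and log2 was taken. Probe sets above it on at least 2 arrays were kept, without 66 control probe sets, which left 7253. In the probe annotation 10855 probe sets name 1 gene, 396 several and 1237 none. Limma 3.58.1 (R 4.3.3) fitted 1 model of the 4 groups to all 8 arrays, with 7 comparisons, two-sided moderated tests, with p-values adjusted by Benjamini-Hochberg across all of these probe sets. A fold is called "at least" where an array of its dimmer side lay at the floor. Shares over all genes use 1 brightest probe set a gene.

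Members called in any comparison were described, at most 10 a role, with up to 3 bright uncalled members a role, probe sets that disagree, and up to 8 called genes of the list outside the name rule. Aqr and the further uncalled members were named after their values were seen. The members and lists were chosen with earlier results of these data known. In 20 simulations of the mean comparison on 7253 probe sets, 200 probe sets were changed. Changes of 2-fold were recovered at a rate of 46.9% and 4-fold changes at 89.8%, and 7.6 unchanged probe sets were called on average. In the data a larger share, 12.7% of all tested genes, was called in this comparison. Whether the simulated rates hold at that share, or for signals near the floor, was not tested. Alternatives were other scalings, floors and filters, a replicate block, array weights, the mean over a gene's probe sets, leaving out each array, and, chosen after seeing the data, the Gapdh 3′ to 5′ ratio as a covariate.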

Additional observations from a re-analysis of the deposited data

Results flagged for a closer look

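Differences from resting were unequal between germinal centre groups, by the direct test of one group against another, at 3 probe sets of splicing factor genes. For Hnrnpu at 93761_at the log2 difference between TI day 4 and TD day 4 was 4.09 ± 0.20 and between TI day 4 and TD day 10 4.27 ± 0.20 (SE, limma adjusted p = 0.0050 and 0.0015), with both TI arrays above the other 6. For Srsf1 at 160539_at these differences were -2.04 ± 0.24 and -2.36 ± 0.24 (SE, limma adjusted p = 0.022 and 0.011), with both TI arrays below all 4 TD arrays. For Prpf19 at 162235_f_at the difference between TI day 4 and TD day 10 was -1.84 ± 0.18 (SE, limma adjusted p = 0.011), with both TD day 10 arrays above the other 6. With 2 arrays a group no array could be tested as standing apart from its group.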

How the results depend on the processing

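Every count below is of called members, and 66 single calls, at all probe sets of the members, kept their sign under all alternatives in which they could be computed. In the comparison of the 3-group mean with resting the count was 17, and 11 with no filter on dim probe sets. In TI day 4 against resting it was 5, and 3 with the floor at the 40th percentile, with the replicate block, with array weights or with the Gapdh ratio as a covariate. In TD day 4 against resting it was 17, and 9 with no filter and 11 with the replicate block, array weights or the Gapdh ratio. In TD day 10 against resting it was 13, and 8 with no filter, the replicate block or array weights, and 7 with the Gapdh ratio. Between TI day 4 and TD day 4 it was 2, and 1 (Hnrnpu) with the floor at the 40th percentile, no filter, the mean over a gene's probe sets or the Gapdh ratio. Between TI day 4 and TD day 10 it was 2, and 1 with the floor at the 40th percentile or the Gapdh ratio. The cause of these changes was not tested. Leaving out 1 array at a time, where the lone array of a group is assumed to vary like the other groups, gave 9 to 15 calls in the mean comparison, 1 to 7 in TI day 4, 2 to 13 in TD day 4 and 2 to 12 in TD day 10 against resting. It gave 0 to 2 between TI day 4 and TD day 4 and 1 to 4 between TI day 4 and TD day 10. The replicate block changed no other count by over 1.5 times. Same-numbered arrays of different groups had correlations of -0.217 to 0.121 in their deviations from the group means. These gave no clear sign of pairing by number, but with 2 arrays a group they cannot exclude it. Scaling to a common median moved the median of all genes between TI day 4 and TD day 10 by 0.104 on the log2 scale. The member median less that of all genes was then -0.07, beside -0.11 as deposited. Signals near the floor, as for Srsf1 and Hnrnpu outside their bright groups, give bounds only.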
